A study of Mus musculus with 9 samples.

Results

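Liver transcripts that differed from control in the same direction in every library of mice given a tetracycline antibiotic were examined, with doxycycline (Dox) and tetracycline (Tc) treated as 1 group of 6 libraries against 3 control libraries. A gene was counted when each of the 6 drug libraries lay above each of the 3 control libraries (raised) or below each of them (lowered). Of the 12100 genes with a mean normalised read count of at least 10 over the 9 libraries, 1412 met this rule (11.7%), with 650 raised (5.37%) and 762 lowered (6.3%). These words describe where the libraries lie and imply no test, and "rose" and "fell" are kept for genes that also passed one. The control, Dox and Tc groups had 3 libraries each. The animals were males of 4 weeks, and all groups, controls included, are labelled as treated with tamoxifen. Dox hyclate or Tc hydrochloride was then given for 7 days in drinking water at 2 mg/mL, with sucrose at 10 mg/mL. The labels do not say whether control mice drank sucrose, and they name neither strain nor genotype. The study's mice were built from embryonic stem cells of a C57BL/6 and 129/sv hybrid line, partly as chimeras, and carry a tamoxifen-activated Cre with a drug-responsive transgene, and in livers of such mice an effect of the drug and one of switching the transgene cannot be told apart.

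Tetracyclines bind the small subunit of bacterial ribosomes and stop protein synthesis. Mitochondria carry ribosomes of bacterial descent, and the same drugs slow the making of the respiratory chain subunits that mitochondrial DNA encodes. The liver clears drugs through oxidising and conjugating enzymes, makes bile and most plasma proteins, and receives blood from the gut, whose bacteria these antibiotics also reach.

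Depth was between 7426136 and 12183041 reads on genes per library, and every deposited value was a whole multiple of 1 read. Library 3 of each group lay close to a weighted sum of libraries 1 and 2 of the same group, with weights of 58.7% and 41.3% in controls, 61.4% and 34.4% with Dox and 61.1% and 37% with Tc. Among genes with a mean of at least 100 that differed over 2-fold between Dox libraries 1 and 2, library 3 lay between them for 2416 of 2420. The libraries numbered 3 therefore add little independent information, and p-values that use all 9 libraries are likely too small. The paper describes 3 independent samples per group, and the cause of the likeness was not tested. For the genes called, the outcome of DESeq2 without the libraries numbered 3 is given as well, and for Muc13 that of limma. Limma and edgeR kept fewer calls than DESeq2 in that setting (below). In the 6 libraries not numbered 3, 2187 genes met the rule. Hepatocyte markers marked the tissue as liver, and none of the 7 tested was a member. Their summed level was nevertheless lower with Dox, at 543001 to 1000714, than in the controls, at 1265543 to 1774524, while Tc libraries, at 1004982 to 1452957, overlapped the controls.

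The separation between groups was small for most members. Its measure here is the gap, the smallest difference in log2(normalised read count + 1) between any drug library and any control library. The median gap was 0.09 among raised and 0.15 among lowered genes. It reached 0.25 for 106 raised and 236 lowered genes, and 1 for 4 raised and 29 lowered genes. Mean changes were larger than the gaps, with a median log2 fold change of 0.48 for raised and -0.87 for lowered genes, and 309 lowered genes but 73 raised genes differed over 2-fold in the mean. At the edge of the rule, Man2b1 was counted as lowered with 2097.5 in its nearest drug library against 2098 in its nearest control library, while Coa6, at 100.6 in both after rounding, was not. Raised members were protein-coding genes in 98.8% of cases and lowered members in 96.6%, against 96.7% of all genes tested.

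**Figure D1:**
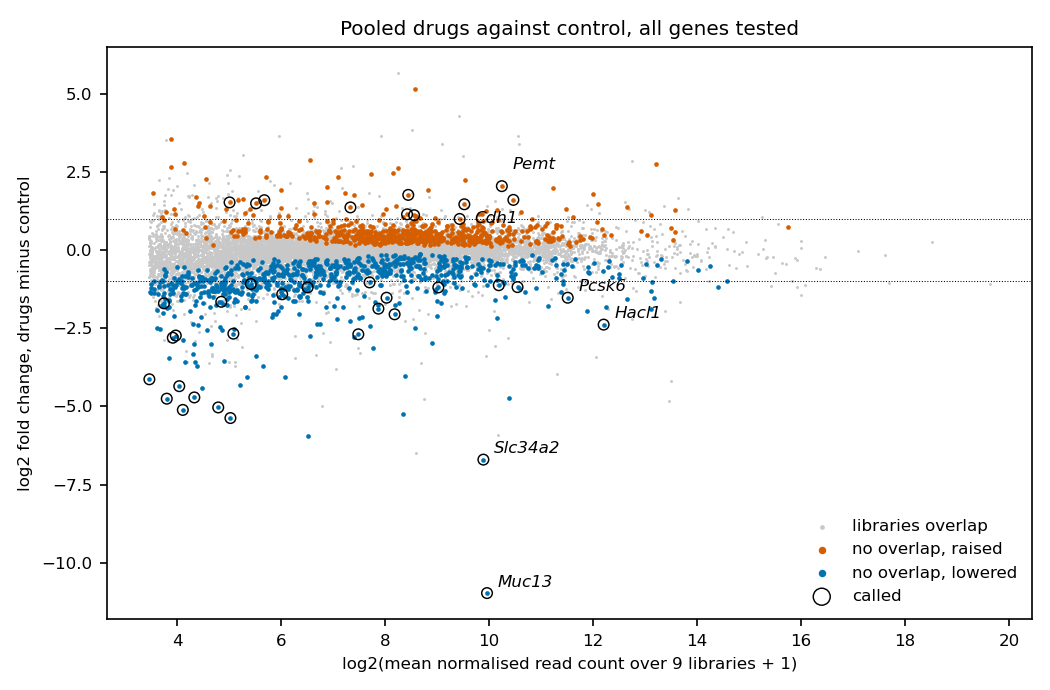
Each point is 1 of the 12100 genes tested, with log2 of its mean normalised read count over the 9 libraries plus 1 on the x axis and its log2 fold change, drugs minus control, on the y axis. Orange and blue points are the 650 raised and 762 lowered genes, black circles mark the 38 genes past both thresholds and dotted lines mark a 2-fold change; Muc13 lies far below all other genes, at -10.97.

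The pooled comparison was tested with limma on log2(normalised read count + 1), with thresholds of an adjusted p under 0.05 and a change over 2-fold. It called 38 of the 12100 genes (0.314%), all of them members, of which 11 rose (0.0909%) and 27 fell (0.223%). The count depended on single libraries, being 294 without Dox library 2, 194 without Tc library 2, 13 without control library 1, and 1 without control library 2 or without control library 3. It was between 19 and 24 without any other single drug library. Without the libraries numbered 3, limma called only Muc13, while 593 genes passed an unadjusted threshold of 0.05. The limma adjusted p of each other gene of the 38 was then 0.893 or 0.931. EdgeR on recovered reads then called 0 genes, and 577 passed unadjusted. DESeq2 on recovered reads, in a setting not planned at the outset, called 32 genes in those 6 libraries (0.264%), of which 25 were among the 38. The other 13, 3 raised and 10 lowered, were Adcy6, Per2, Ccne1, Slc34a2, Myom2, Pkm, Psen2, Pdcd4, Fam129b, Gm5096, Kif5a, Slc35c2 and Zc3h12d. With all 9 libraries DESeq2 called 339 genes, the 38 included.

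**Figure D2:**
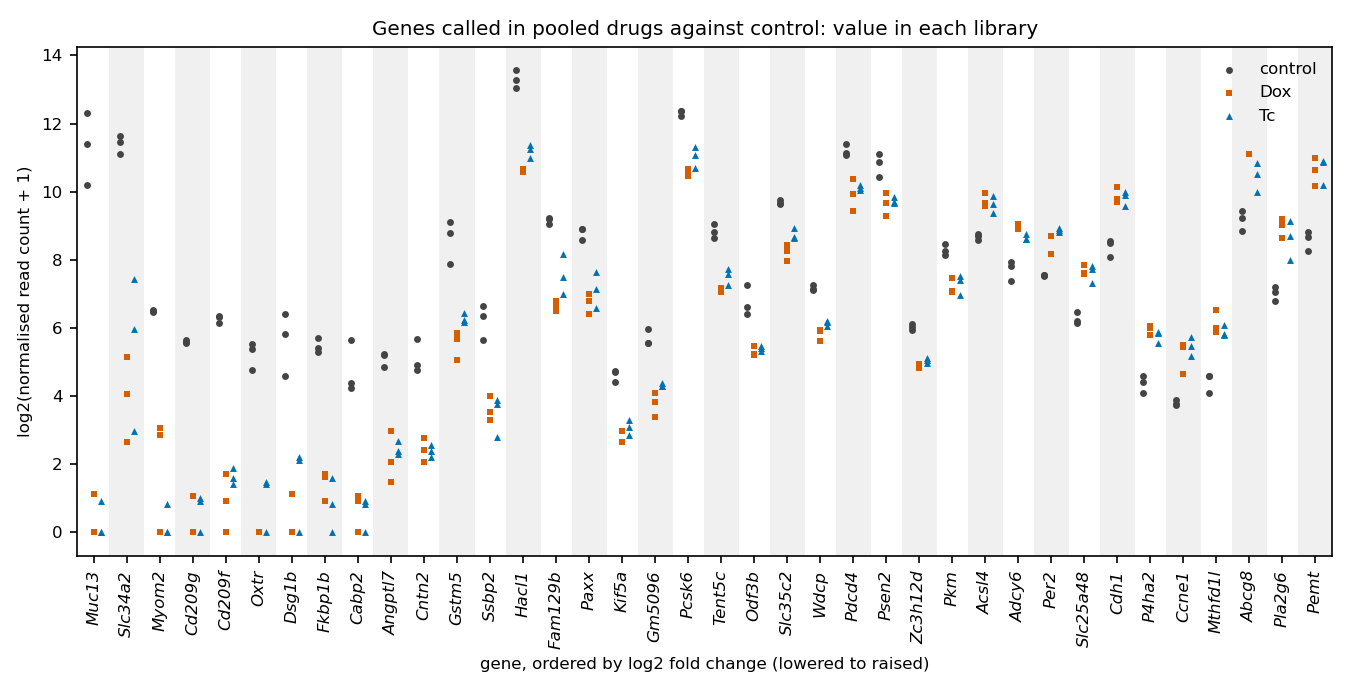
Log2(normalised read count + 1) of the 38 called genes in each library, with 3 control (grey circles), 3 Dox (orange squares) and 3 Tc libraries (blue triangles) per gene, ordered by log2 fold change. In every column all 6 drug libraries lie on 1 side of all 3 control libraries, and 9 lowered genes at the left lie over 4 below their controls on average.

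Among the lowered genes, transcripts that were plain in control liver and almost missing from drug-treated liver stood out by size. Muc13, a transmembrane mucin of epithelial surfaces (chr16:33794037-33819934, GRCm38), had normalised read counts of 1185.5, 5042.7 and 2713.1 in the controls and no more than 1.2 in any drug library. Only 2 reads of it were found in all 6 drug libraries, against 8954 in the controls. The ratio of control to drug means was 8730, with a 95% exact Poisson interval from 2420 to 72000 that covers counting error only. A count of 0, as found in 4 of these libraries, allows up to 3 reads. The limma adjusted p was 1.3e-05 with 9 libraries and 0.0262 without the libraries numbered 3. Muc13 reached the mean of 10 only through the controls.

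Slc34a2, the sodium-phosphate cotransporter NaPi-IIb (chr5:53038081-53071664), had 3187.2, 2222.3 and 2814.8 in the controls. In the drug libraries it ranged from 5.3 to 170.9 with a median of 25.2, the highest value being that of Tc library 2. It fell by 6.70 ± 0.95 (log2, SE; adjusted p = 0.0218), and DESeq2 without the libraries numbered 3 gave it no adjusted p. The neighbouring long non-coding gene 5033403H07Rik, also a lowered member, had a gap of -1.03.

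Hacl1, a peroxisomal lyase of the breakdown of 2-hydroxy and branched-chain fatty acids, also fell. Control libraries held 8413.1, 12164.5 and 9933.3 normalised read counts, and the drug libraries 1544.9 to 2653.7 (median 1832.4). Its log2 fold change was -2.38 ± 0.22 (adjusted p = 0.00406), and DESeq2 without the libraries numbered 3 gave an adjusted p of 1.74e-08. It was the single member among 19 tested peroxisome genes.

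Cd209f and Cd209g encode lectins of the DC-SIGN family, lie 28263 bases apart on chromosome 8 and fell together; both were chosen for naming after their values were seen. Cd209f had 81.5, 78.7 and 69.9 in the controls and at most 2.7 with the drugs, that is 10 reads in the 6 drug libraries against 221 in the 3 control libraries. For Cd209g the controls read 46.6, 46.9 and 49.6, and 3 reads in all were found in the drug libraries, a control to drug ratio of 97.7 (exact Poisson interval from 33.4 to 474). Cd209f and Cd209g are paralogs, and whether reads of one were counted for the other was not tested. By DESeq2 without the libraries numbered 3 their adjusted p-values were 3.34e-10 and 1.07e-05. Both genes reached the mean of 10 only through the controls. A shared stretch lies before their RefSeq starts, and these upstream sequences are shown for that reason, cut where annotated exons begin, that of Cd209g lying inside the gene's GENCODE bounds, each on its own strand and in build GRCm38.p6. Capitals mark the longest run of identical bases, 83 long.
Cd209f (chr8:4105836-4106014, minus strand): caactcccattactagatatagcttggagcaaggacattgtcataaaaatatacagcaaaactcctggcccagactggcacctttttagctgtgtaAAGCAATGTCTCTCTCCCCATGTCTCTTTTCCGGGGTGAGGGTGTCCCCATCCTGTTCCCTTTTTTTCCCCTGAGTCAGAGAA
Cd209g (chr8:4134486-4134651, plus strand): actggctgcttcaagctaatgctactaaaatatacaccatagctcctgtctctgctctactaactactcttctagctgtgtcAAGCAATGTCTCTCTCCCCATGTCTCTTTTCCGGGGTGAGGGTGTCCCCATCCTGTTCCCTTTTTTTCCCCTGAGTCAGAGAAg

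Another neighbouring pair on chromosome 12, Fkbp1b and Wdcp, starts 1712 bases apart on opposite strands, and both genes fell. Fkbp1b, which stabilises calcium release channels, had 50.8, 38 and 42 in the controls and between 0 and 2.3 in the drug libraries. Wdcp had 138.7, 140.7 and 152.6 against 48.4 to 72.8, a log2 fold change of -1.19 ± 0.16 (adjusted p = 0.0163, and 0.0191 by DESeq2 without the libraries numbered 3). Other genes close to absence with the drugs included Oxtr, the oxytocin receptor, with 4 reads in the 6 drug libraries against 105 in the controls, Cabp2, a calcium-binding protein, with 4 against 88, and Dsg1b, a desmosomal cadherin, with 9 against 150. Fkbp1b, Oxtr, Cabp2 and Dsg1b also passed with DESeq2 in the 6 libraries, at adjusted p-values from 2.13e-05 to 0.00301. Myom2, a muscle M-band protein, had 92.1, 89.4 and 87.7 in the controls and 0 to 7.4 with the drugs, but DESeq2 without the libraries numbered 3 did not call it (adjusted p = 0.778). Fkbp1b, Oxtr, Cabp2, Dsg1b and Myom2 reached the mean of 10 only through the controls, with drug means of at most 2.4. Their p-values rest on the same separation for which they were picked out.

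Lowered genes that remained readily measured with the drugs covered several roles. Gstm5, a mu-class glutathione transferase, had 233.9, 552 and 443.7 in the controls and 32.2 to 85.4 with the drugs (log2 fold change -2.69 ± 0.34, adjusted p = 0.0141). The DNA end-joining factor Paxx was at 481.6, 383.1 and 476.8 against 84 to 197.8 (-1.87 ± 0.25, adjusted p = 0.0163). Tent5c, a poly(A) polymerase, was at 401.2, 526.4 and 446.3 against 133.4 to 210.6 (-1.52 ± 0.18, adjusted p = 0.0108). These 3 genes also passed both thresholds with DESeq2 without the libraries numbered 3. Pcsk6, a proprotein convertase, dropped from 5296.9, 4774.7 and 5261 to between 1404.5 and 2527.8 (-1.52 ± 0.19, adjusted p = 0.014). The predicted gene Gm20684 (chr7:65861006-65861992) overlaps the start of Pcsk6 (chr7:65861734-66050386) on the other strand and was lowered too (gap -1.3). The paper used a directional library kit, but the counting's strand setting is not given in the sources used here. How reads within this overlap were assigned therefore cannot be told. Odf3b fell by 1.41 ± 0.20 (adjusted p = 0.0218) from 153.5, 84 and 96.6 to at most 43.8. Further genes that fell included Pkm, the pyruvate kinase little used by hepatocytes (-1.03 ± 0.16), Psen2, a presenilin of the gamma-secretase complex (-1.12 ± 0.18), and Pdcd4, an inhibitor of translation initiation (-1.18 ± 0.20). DESeq2 without the libraries numbered 3 gave adjusted p-values of 0.00308 for Pcsk6 and 0.0208 for Odf3b, but did not call Pkm, Psen2 or Pdcd4 (0.0619, 0.0883 and 0.0777).

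Several lowered genes had large gaps and yet missed the adjusted threshold, and their drug libraries differed widely among themselves. Corin, a membrane protease, had 244.5, 99.1 and 178 in the controls and 2.1 to 33.3 with the drugs (adjusted p = 0.0616). Gpc1, a cell-surface heparan sulfate proteoglycan, had 705, 323.8 and 520 against 18.4 to 110.6, with all Dox libraries below all Tc libraries (adjusted p = 0.0629). Acnat2, an acyl-CoA acyltransferase, had 1161.2, 990 and 1092.1 in the controls, 32.6 in Dox library 1 but 361.5 in Tc library 2 (adjusted p = 0.0922). Lad1, a basement membrane protein, Zap70, a T cell kinase, and Gatm, an enzyme of creatine synthesis, had adjusted p-values of 0.0644, 0.105 and 0.141. Gatm was at 256.2, 261 and 270.8 in the controls, at 23 to 64.2 with Dox and at 123 to 133.1 with Tc.

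Among the raised genes, several that passed the test handle lipids or one-carbon units. Pemt, which makes phosphatidylcholine by methylating phosphatidylethanolamine, had 305.9, 452.1 and 404.3 in the controls and 1154.9 to 2021.7 with the drugs (median 1728.1). Its lowest drug library was thus over 2-fold above its highest control library, and the Dox and Tc libraries covered the same range. It rose by 2.05 ± 0.22 (log2, SE; adjusted p = 0.00892), with 0.000186 by DESeq2 without the libraries numbered 3. Mthfd1l, the mitochondrial enzyme that releases formate from folate, rose from 15.9, 23 and 22.9 to between 54.7 and 90.9 (log2 fold change 1.6 ± 0.21, adjusted p = 0.0163). Pla2g6, a calcium-independent phospholipase, had 145, 110.6 and 132.2 against 251.8 to 586.5 (1.77 ± 0.25, adjusted p = 0.0224). Acsl4, which activates polyunsaturated fatty acids, rose by 1 ± 0.14 (log2) from 430.8, 384.8 and 414.5, the change nearest to the 2-fold limit (adjusted p = 0.0215). Slc25a48, a carrier of the inner mitochondrial membrane, rose from 73, 88.5 and 69.9 to between 158.2 and 228.5 (1.37 ± 0.15, adjusted p = 0.00892). With DESeq2 without the libraries numbered 3, Mthfd1l, Pla2g6, Acsl4 and Slc25a48 passed at adjusted p-values of 0.0208, 0.0164, 0.0304 and 0.00835.

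Abcg8 and Abcg5 together form the transporter that moves sterols into bile, and their starts face each other on chromosome 17. Abcg8 had 690.2, 458.3 and 605.2 in the controls, 2208.1, 2208.6 and 2225.9 with Dox and 1828, 1019.8 and 1468.8 with Tc, and it rose by 1.61 ± 0.27 (adjusted p = 0.0385, and 0.0286 by DESeq2 without the libraries numbered 3). Abcg5 had 597, 370.7 and 534 in the controls and 794.9 to 1512.3 with the drugs, a log2 fold change of 1.26 ± 0.25 that missed the threshold (adjusted p = 0.068). The 109 bases between the RefSeq starts of the 2 genes, which they share as upstream sequence and which lie inside the GENCODE bounds of Abcg8, are printed on the strand of Abcg8. None of the 7 motifs searched (below) lies within them.
Abcg8 and Abcg5 (chr17:84683012-84683120, plus strand): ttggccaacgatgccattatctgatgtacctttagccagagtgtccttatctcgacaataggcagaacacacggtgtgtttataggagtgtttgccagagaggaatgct

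Raised genes of other roles included Cdh1, the adhesion protein E-cadherin, with 273.1, 376.9 and 358.5 in the controls and 761.7 to 1133 with the drugs (1.47 ± 0.16, adjusted p = 0.00892). Adcy6, an adenylyl cyclase, rose by 1.12 ± 0.16 from 166.2, 243.3 and 223.8 to between 387.7 and 530.7 (adjusted p = 0.0239). P4ha2, a collagen prolyl hydroxylase subunit, was at 15.9, 20.3 and 22.9 against 45.9 to 66.3 (1.5 ± 0.19, adjusted p = 0.0131). In the 6 libraries not numbered 3, DESeq2 called Cdh1 (adjusted p = 0.00066) and P4ha2 (adjusted p = 0.0202) but not Adcy6 (adjusted p = 0.0581). Ccne1, the G1 cyclin E1, had 13.8, 12.4 and 12.7 in the controls and 24.2 to 51.8 with the drugs, and rose by 1.53 ± 0.25 (adjusted p = 0.0372). It was the only member among 18 tested cell cycle genes, and DESeq2 without the libraries numbered 3 did not call it (adjusted p = 0.262).

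Another set of raised genes was above control in every drug library without passing the test, and its drug libraries were far apart. Cyp2a5, the coumarin hydroxylase, had 2384.9, 828.1 and 1734.2 in the controls and 4526 to 36492.2 with the drugs, the highest in Dox library 2 (2.75 ± 0.63, adjusted p = 0.0971). Sik1, a salt-inducible kinase, had 242.4, 143.3 and 171.6 against 443.3 to 2378.8 (adjusted p = 0.0727). Ppp1r3g, which brings protein phosphatase to glycogen, had the widest gap of the raised genes (1.49) on few control reads, with 3.2, 0.9 and 1.3 against 14.7, 2443.2 and 849 with Dox and 10.7, 61.1 and 27 with Tc. Its adjusted p was 0.177. Ces2c, a carboxylesterase, had 49.8, 50.4 and 50.9 in the controls. It was at 92 and 89 in Dox library 2 and Tc library 2, and at 466.6 to 741.3 in the other drug libraries (adjusted p = 0.139). Acmsd, which directs tryptophan breakdown away from NAD synthesis, Alpl, alkaline phosphatase, Smad9 and Epop were separated likewise, with adjusted p-values from 0.107 to 0.154.

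Gene lists were compared with the 11.7% of all genes tested that were members, as counts and medians with no test, and the lists were chosen with earlier results of these data known. The circadian clock list had 7 members among 18 tested genes (38.9%), with 6 raised and 1 lowered. Per2, a repressor of the clock loop, had 188.4, 185.8 and 184.3 in the controls and 287.6 to 484.3 with the drugs, and it rose by 1.15 ± 0.17 (adjusted p = 0.0224), a call that DESeq2 without the libraries numbered 3 did not make (adjusted p = 0.0581). Tef, a transcription factor of the clock output, had 1571.9, 1030.7 and 1290.4 against 1946.3 to 2468.2 (0.82, adjusted p = 0.0629). Nr1d2, a nuclear receptor that represses clock genes, was at 988.7, 787.4 and 907.8 against 1247.3 to 1432.1 (0.61, adjusted p = 0.0644). Per1 and Rora were raised with log2 fold changes of 0.73 and 0.52, and Clock, an activator of the loop, was lowered with a gap of -0.02 (log2 fold change -0.42). The hour at which livers were taken is not given in the labels.

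Upstream sequence of Per1 and Tef is shown because the clock's activators bind the E-box CACGTG, and both stretches hold 1 such match, in capitals. Each precedes a RefSeq start that lies inside the gene's GENCODE bounds, downstream of another annotated start.
Per1 (chr11:69098699-69098947, plus strand): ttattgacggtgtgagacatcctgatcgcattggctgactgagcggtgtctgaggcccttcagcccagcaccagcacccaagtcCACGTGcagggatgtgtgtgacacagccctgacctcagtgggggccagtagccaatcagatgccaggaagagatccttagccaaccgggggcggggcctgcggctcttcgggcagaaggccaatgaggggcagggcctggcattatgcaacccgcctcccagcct
Tef (chr15:81811164-81811413, plus strand): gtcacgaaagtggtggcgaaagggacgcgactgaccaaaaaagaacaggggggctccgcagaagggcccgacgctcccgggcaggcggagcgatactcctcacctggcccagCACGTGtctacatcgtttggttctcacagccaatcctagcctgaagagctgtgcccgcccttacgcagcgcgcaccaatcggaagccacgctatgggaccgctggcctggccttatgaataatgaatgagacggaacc
RefSeq promoter windows of 250 bases before to 50 after the start were at hand for 515 of the 650 raised genes (649 windows), 603 of the 762 lowered genes (809 windows) and 9525 of the 12100 genes tested (12216 windows). The E-box CACGTG was present in 12.3% of windows of raised genes, 8.53% of lowered genes and 9.78% of all. The antioxidant response element TGACNNNGC, searched like the others on both strands, was in 17.3%, 12.1% and 14.1%, and the CCAAT box in 40.5%, 33.9% and 37.4%. The nuclear receptor element AGGTCA lay in 14.5% of raised, 17.2% of lowered and 13.1% of all windows. Shares of the STAT element TTCNNNGAA were 5.86%, 6.8% and 6.88%, those of the amino acid response element TGATGNAA were 2.77%, 2.1% and 2.24%, and the D-box TTATGTAA was in under 1% of each set. E-box and antioxidant element matches can overlap other motifs. These are letter matches, and binding was not measured.

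Among lists of drug metabolism, of 28 tested genes of the NRF2 and glutathione list, 7 were raised (25%, against 5.37% of all genes). In that list 0 were lowered and none was called. Gstm5, a mu-class glutathione transferase outside that list, fell by limma, as given above (log2 fold change -2.69, adjusted p = 0.0141). Gstm3 had 58.2, 62.8 and 57.2 in the controls and 422.2, 593.6 and 483.9 with Dox, but 483.4, 75.5 and 317.5 with Tc (adjusted p = 0.0958). Gsta2 was at 10.6, 10.6 and 12.7 in the controls, at 143.8 to 295.9 with Dox and at 19.8 to 61.5 with Tc (adjusted p = 0.131). Ephx1, the microsomal epoxide hydrolase, had 500.7, 978.5 and 738.7 against 1279.1 to 6141 (adjusted p = 0.105). Of 5 tested targets of the aryl hydrocarbon receptor, Cyp1a1 and Cyp1a2 were raised, Cyp1a2 from 1497.8, 1220 and 1511.7 to between 2064.8 and 8256.4 (adjusted p = 0.0998). Of 24 targets of the xenobiotic receptors CAR and PXR, Cyp2a5 and Cyp3a59 were raised (8.33%). These families hold close paralogs whose reads may be divided between them.

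**Figure D3:**
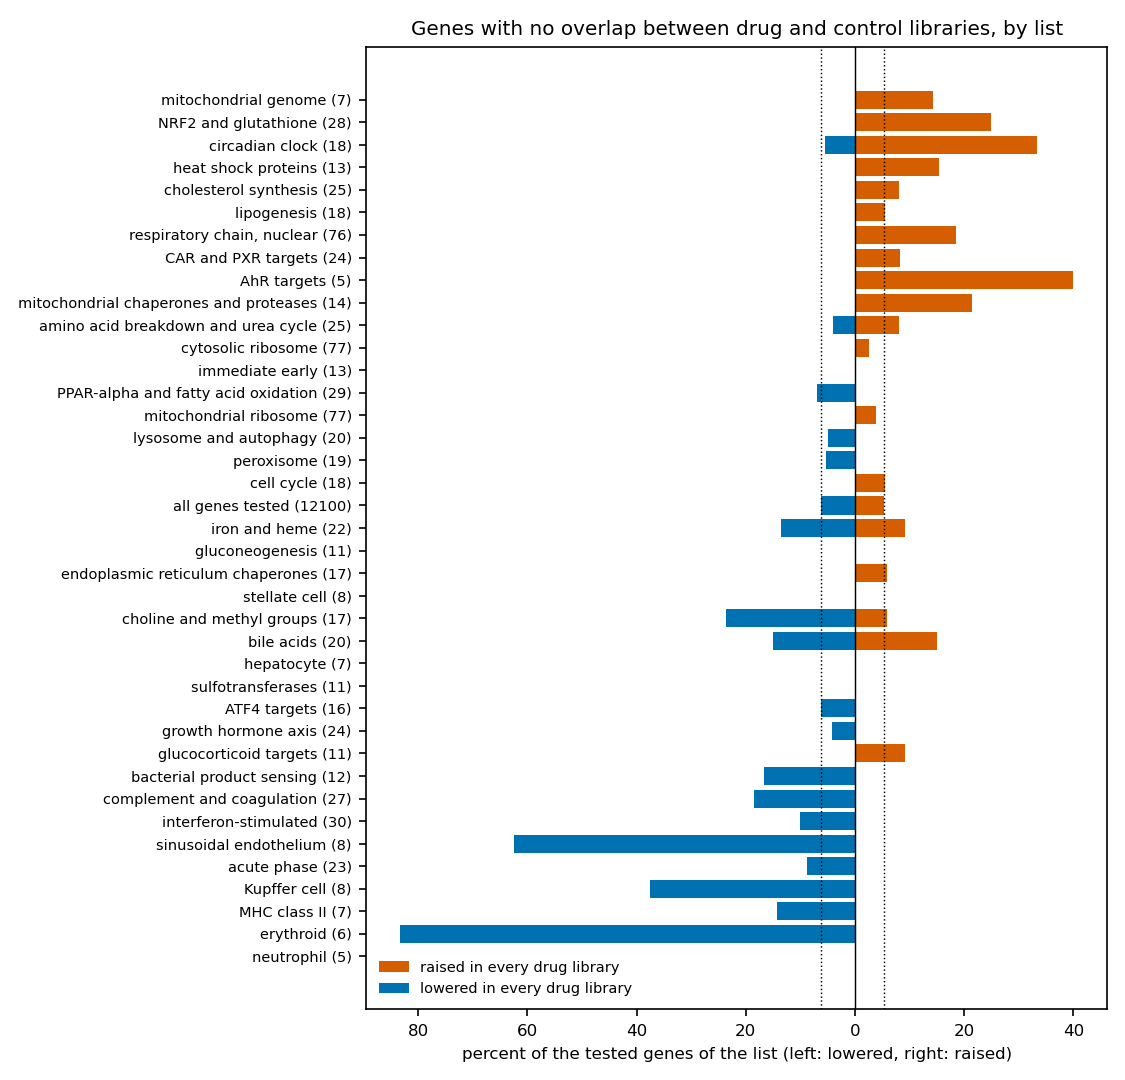
Bars give the percent of each list's tested genes (number in brackets) that were raised in every drug library (orange, right) or lowered in every drug library (blue, left), for lists with at least 5 tested genes, ordered by median log2 fold change. Dotted lines mark the 5.37% and 6.3% found among all genes tested; clock, NRF2 and respiratory chain lists lie beyond the raised line, and erythroid, endothelial and Kupffer cell markers far beyond the lowered one.

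Nuclear genes of the respiratory chain were raised in 14 of 76 tested cases (18.4%, against 5.37% of all genes) and lowered in 0. Each was raised by a modest amount and none was called. Cycs, cytochrome c, differed most among them, with 112.2, 135.4 and 127.1 in the controls and 180.6 to 240.2 with the drugs (0.76, adjusted p = 0.0504). Cox6b1, a complex IV subunit, was at 1157, 949.3 and 1076.9 against 1409.1 to 1835.4 (0.62, adjusted p = 0.071), and Atp5a1, of the ATP synthase, at 6724.8, 6563.5 and 6575.6 against 7782.2 to 9851.7 (0.48, adjusted p = 0.154). The list's median log2 fold change was 0.24 against 0.01 over all genes. Mitochondrial chaperones and proteases had 3 of 14 raised (21.4%), namely Clpp, Hspa9 and Hspd1, with log2 fold changes of 0.3, 0.48 and 0.26. Of the 77 mitochondrial ribosome genes, 3 were raised (3.9%), below the share of all genes, and of 7 transcripts of mitochondrial DNA only mt-Co1 was, by a gap of 0.01. Without the libraries numbered 3, 6 of those 7 were raised, and of the 77 mitochondrial ribosome genes 12 were raised and 3 lowered. Of all 12100 genes, 1103 were then raised and 1084 lowered.

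Choline and methyl-group genes went both ways. Of 17 tested, Pemt was raised and Bhmt, Bhmt2, Cbs and Dmgdh were lowered (29.4% members, against 11.7% of all genes tested). Bhmt, which remakes methionine from betaine, had 15351.8, 17502.8 and 15168.8 in the controls and 3406 to 8071.8 with the drugs (log2 fold change -1.54, adjusted p = 0.062). DESeq2 without the libraries numbered 3 gave it an adjusted p of 0.0395. Cbs, the first enzyme of homocysteine transsulfuration, had 10415.9, 6595.4 and 8115.2 against 3728.1 to 5231.2 (-0.89, adjusted p = 0.0727). The bile acid list, which also holds the sterol transporter genes Abcg8 and Abcg5, was divided as well, with members making up 30% of 20 tested. Abcg8, Abcg5 and the canalicular pump Abcc2 were raised, and Cyp2c70, the bile acid receptor Nr1h4 and the FGF co-receptor Klb lowered. Of 25 genes of amino acid breakdown and the urea cycle 2 were raised and 1 lowered (12%, near the 11.7% of all genes). Tdo2, the first enzyme of tryptophan breakdown, was at 5820.8, 6244.2 and 5890.3 in the controls and 9079.8 to 23146.4 with the drugs (1.28, adjusted p = 0.0964). Uroc1, of histidine breakdown, was lowered (-1.02, adjusted p = 0.0833).

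Plasma protein genes of complement and coagulation were lowered in 5 of 27 cases (C4b, C8a, C8g, Cfi and F12) and raised in 0. That share was 18.5%, against 6.3% of all genes tested. C8a, a component of the membrane attack complex, shows how unequal the drug libraries were, with 11743.3, 12081.4 and 10909.7 in the controls, 203.6 in Dox library 2 and 5637.7 to 10439.9 in the others. Saa4 and Cp were the 2 lowered acute phase genes of 23 (8.7%). Interferon-stimulated genes had 3 of 30 lowered (10%), against 6.3% of all genes. Members were absent from the gluconeogenesis, sulfotransferase and immediate early lists (11, 11 and 13 tested genes).

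**Figure D4:**
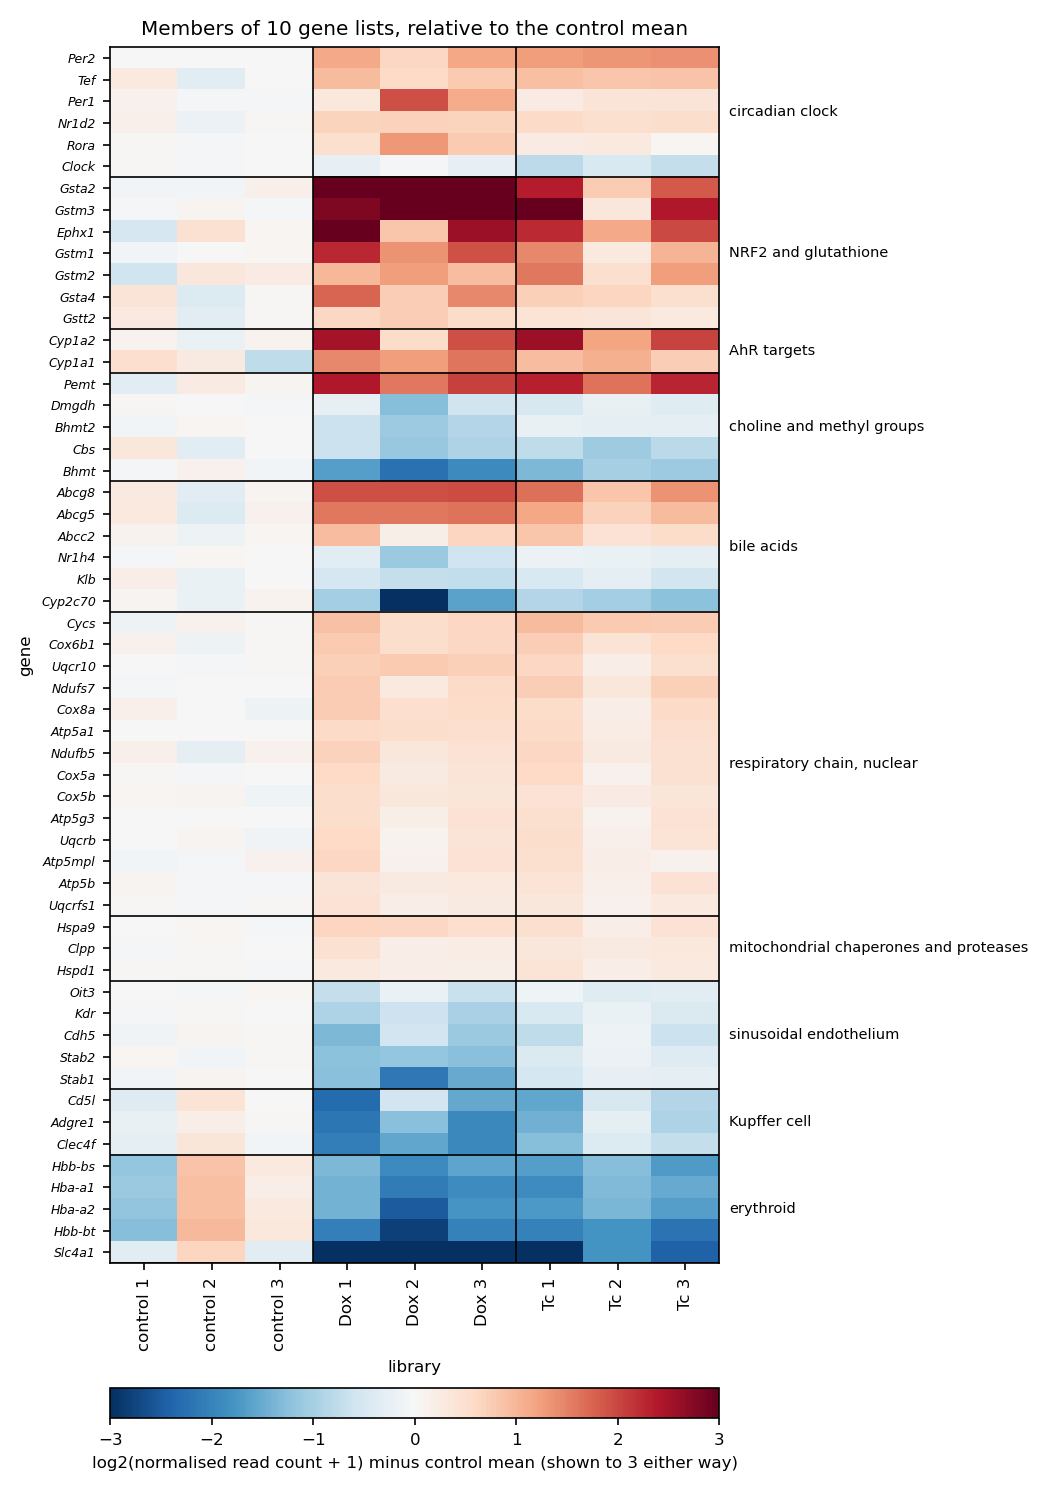
Each row is a member of 1 of 10 gene lists (not every member is drawn), each column a library, and colour gives log2(normalised read count + 1) minus the mean of the 3 controls, red above and blue below, with values beyond 3 shown at 3. Rows keep 1 colour over all 6 drug columns; the depth of colour differs between Dox and Tc libraries for glutathione transferases and endothelial markers, and the erythroid rows also vary among the 3 controls.

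Markers of cells other than hepatocytes were among the lowered genes. The summed hepatocyte markers were also lower with Dox, as given above, so lower sums were not confined to the other cell types. In bulk liver, fewer cells of a type and less RNA per cell cannot be told apart. Erythroid markers had 5 of 6 tested genes lowered (83.3%, against 6.3% of all genes tested). Of these, Slc4a1 reached the mean of 10 only through the controls, with a drug mean of 7.1. The others are alpha and beta globin genes, close paralogs whose reads may be divided between them. The summed level of the erythroid markers was 1535 to 6078 in the controls, 762.6 to 2495 with Dox and 1334 to 2126 with Tc. Hbb-bs, a beta globin, had 815.1, 3276.9 and 2222.4 in the controls and 480.8 to 748.2 with the drugs, so the spread between controls exceeded the gap to the drugs. Sinusoidal endothelium had 5 of 8 lowered (62.5%), with summed levels of 6773 to 7056 in the controls, 3260 to 3694 with Dox and 5079 to 6076 with Tc. Kupffer cell markers had 3 of 8 lowered (37.5%), namely Adgre1, Clec4f and Cd5l, with sums of 7876 to 12631, 2215 to 6239 and 3779 to 7296. Clec4f, which marks Kupffer cells, was at 2148.8, 3405.2 and 2497 in the controls and 623.4 to 1993.7 with the drugs. Neutrophil markers summed to 55 to 515.8 in the controls, 5.3 to 139.2 with Dox and 15.6 to 125.9 with Tc, and overlapped. B and T cell markers summed to 55 to 82.3 in the controls, 20.7 to 27.3 with Dox and 26.4 to 48.6 with Tc, so that every drug library lay below every control library, although only 1 of the 8 had a mean of at least 10 and could be a member. None of the tested stellate cell (8), neutrophil (5), cholangiocyte (3) or B and T cell markers (1) was a member. No marker of these lists was at 0 in all libraries. None was called, and their part in the other lowered genes was not tested.

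Dox and Tc were compared directly in a fit of 3 groups over all 9 libraries. The difference itself leaves out the control libraries, but the estimate of spread behind its p-value uses them. It called 26 of the 12100 genes (0.215%), of which 4 were members, all lowered and all lower with Dox than with Tc. Cyp2c40, a cytochrome P450, had 2521.4, 1537.6 and 2311.4 in the controls, 163.2, 269.2 and 218.2 with Dox and 747, 1533.2 and 894.4 with Tc. Its log2 difference, Dox minus Tc, was -2.24 ± 0.31. Rdh16f2, a retinol dehydrogenase relative, differed by -1.24 ± 0.18, St3gal4, a sialyltransferase, by -1.25 ± 0.19, and Sod3, the extracellular superoxide dismutase, by -1.03 ± 0.15. Each had an adjusted p of 0.0498, at the edge of the threshold, and between 0.101 and 0.104 with the replicate number as a block. Without the libraries numbered 3 the adjusted p was 0.755 for each by limma. An unadjusted p under 0.05 was found for 23.2% of members and 21.7% of all genes tested. The log2 difference, Dox minus Tc, was -0.06 ± 0.27 for Pemt (adjusted p = 0.895), 0.05 ± 0.19 for Cdh1 (adjusted p = 0.886) and 0.06 ± 0.57 for Muc13 (adjusted p = 0.956), which does not show that the drugs act alike.

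Dox lay farther from control than Tc in the group mean for 1163 of the 1412 members (82.4%), 521 raised and 642 lowered, against 66.9% of all genes tested when each is read in the direction of its pooled change. The median log2 difference from control among raised genes was 0.57 with Dox and 0.38 with Tc, and among lowered genes -1.06 and -0.65; both use the same control libraries. All Dox libraries lay beyond all Tc libraries for 364 members (25.8%, against 19.6% of all genes tested), and the reverse held for 26 (1.84%, against 5.02%). Which library set the gap was uneven. Tc library 2 was the drug library nearest to the controls for 640 members (45.3%), and Dox library 2 was the farthest for 646 (45.8%). Dox library 2 was also the nearest for 218 members, among them Per2 and Ccne1.

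**Figure D5:**
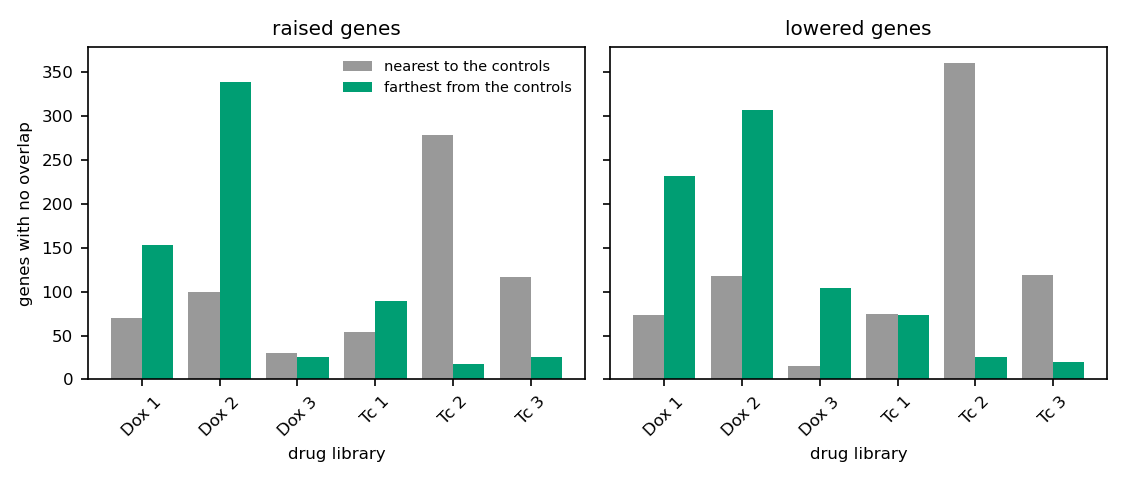
Bars count, for raised (left) and lowered genes (right), how often each drug library was the nearest to the controls (grey) or the farthest from them (green). Tc library 2 was nearest for 279 raised and 361 lowered genes, and Dox library 2 was farthest for 339 and 307.

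Members lay on every autosome and the X chromosome, and made up between 7.89% and 14.3% of the tested genes of each. The next tested gene along the chromosome was raised for 7.72% of raised genes, against 5.37% of all genes, and lowered for 10.8% of lowered genes, against 6.29% of all. Besides the pairs above, neighbours that were both separated by a gap of at least 0.5 were Pla2g6 with Maff, Tdo2 with Asic5 and Rbm20 with Pdcd4. Overlapping gene models can share reads where strand is ignored.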

How the data were processed

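RNA of 9 liver libraries (3 control, 3 Dox, 3 Tc) was sequenced as single-end reads of 86 bases. The authors trimmed reads with cutadapt, aligned them to mm10 (GENCODE annotation) with STAR 2.7.11ac, counted uniquely mapped reads per gene with HTSeq 2.0.5 and deposited a signal of normalized counts, each library's counts having been divided by its DESeq2 1.42.0 size factor. Such scaling makes libraries comparable if most genes are unchanged. Whole reads were recovered for 100% of values (within 0.05 reads).

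Members, gene lists and tests were chosen with earlier results of these data known. Log2(normalized count + 1) was tested with limma 3.58.1 (trend) in R 4.3.3 over the 12100 genes averaging 10 or more, with the 6 drug libraries as 1 group, and with Benjamini-Hochberg adjustment over all of them. DESeq2 1.42.0 and edgeR 4.0.16 on recovered reads, other pseudocounts, filters, scalings, models and left-out libraries served as alternatives. Scripts were tested on simulated data. Symbols and coordinates come from GENCODE on GRCm38 (32158 of 32285 identifiers), and promoter sequences from RefSeq on GRCm38.p6. Genes named by rule were the 15 raised and the 15 lowered with the largest gaps, a mean of at least 50 and a symbol that is not a predicted gene, the called members of gene lists, and the defining genes of a list beside its count; the others were chosen after their values were seen.

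Deviations from the group mean were correlated between Dox and Tc libraries that carry the same number in the labels (r = 0.29, 0.32 and 0.18), and controls paired with neither (r from -0.08 to 0.06). Dox against Tc was therefore also fitted with a replicate block. Nothing in the labels ties libraries to separate animals, so p-values measure the spread between these libraries. Intervals cover counting error only. Some genes are not reported here.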

Additional observations from a re-analysis of the deposited data

Results flagged for a closer look

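Per2 had 287.6 in Dox library 2, far below the other 5 drug libraries, which lay between 411.7 and 484.3. Zap70 likewise had 15 in Dox library 2 against 55.7 to 105.2 in the other drug libraries. Chance alone marks about 1 in 20 groups in this way.

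The Dox against Tc difference passed the adjusted threshold for 4 members, each at an adjusted p of 0.0498 by limma and with every Dox library below every Tc library. The log2 differences, Dox minus Tc, were -2.24 for Cyp2c40, -1.25 for St3gal4, -1.24 for Rdh16f2 and -1.03 for Sod3. With the replicate block none of the 4 passed, at adjusted p-values from 0.101 to 0.104.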

How the results depend on the processing

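Against 38 genes called by limma, all of them members, the counts of calls (members among them) were 82 (82) without a filter, 23 (23) at a mean of at least 50, 190 (175) with 3 groups in the model, 333 (200) with control and Dox only, 276 (126) with control and Tc only, 825 (335) with array weights and 339 (272) with DESeq2. Without the libraries numbered 3, limma called 1 (1) and edgeR 0 (0), and without Dox library 2 as well limma called 2 (2); edgeR, DESeq2 without the libraries numbered 3, other pseudocounts, equal totals and the other fold limits stayed within 1.5 times. Leaving out each library in turn gave 1 to 294 calls, 1 to 290 of them members. With a replicate block over all 9 libraries 13 (13) were called. Of the 4 members that differed between Dox and Tc, 0 passed with pseudocounts of 0.1 or 8, without a filter, at a mean of at least 50, with equal totals, with the replicate block over 9 libraries or over Dox and Tc only, without the libraries numbered 3, or with edgeR; DESeq2 gave 55, and leaving out single libraries gave 0 to 99. Members numbered 342 at a gap of at least 0.25 and 2187 without the libraries numbered 3, and 1449 to 2334 without single libraries. With equal totals per library 54.8% of members were raised, against 46%, as the median log2 fold change shifted by 0.09. None of the 33 genes named by rule changed sign in the 21 alternatives. Each was chosen because its drug libraries lie on 1 side of its controls. Leaving out libraries could therefore not reverse the sign, and this count is no test of the direction. Causes of these shifts were not tested beyond the smaller number of genes or libraries in a fit.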
